A study of Mus musculus with 12 samples.

Results

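miR-802 is a microRNA, a short RNA that pairs with messenger RNAs and lowers their output. It was read by the probe mmu-miR-802, which is 1 of 355 mouse probes on the panel used, and it was chosen by its own levels in these 12 livers: at background in the embryo, high at 2 and 3 weeks of age and lower at 7 weeks. All values of miR-802 between ages, and of its ratio to miR-122, are therefore given as a description, with no test. The probe of miR-122, the most abundant microRNA of the hepatocyte, serves as the companion against which the course of miR-802 is set.

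The livers came from C57Bl/6 mice of 4 ages, with 3 livers per age. The embryonic livers, taken on embryonic day 15.5 (e15.5), were of mixed sex, and the livers of 2, 3 and 7 weeks after birth were from males, so any difference from the embryo joins age and sex, which cannot be told apart. No treatment or mutation is named for any group. Total RNA was read with the nanoString nCounter assay, in which coloured barcodes on hybridised probes are counted without amplification. The labels do not say whether an embryonic sample was 1 liver or a pool, and a mouse number from 1 to 3 names each liver within its age. A whole liver holds many cell types, so fewer cells of a type and less of the RNA per cell cannot be told apart.

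In adult mice miR-802 is made in the liver, pancreas and intestine. In mouse work it is known for being raised in the liver of obese animals, where it lowers insulin sensitivity. A microRNA is cut from a hairpin precursor, and target choice rests mainly on the seed, the short stretch near the 5′ end of the mature strand. The hairpin of Mir802 lies at chr16:93369720-93369816 on the plus strand of the mouse genome build GRCm38.p6, overlaps no other annotated gene, and has the long noncoding genes 1810053B23Rik and 1700029J03Rik as its nearest neighbours. The nearest protein-coding genes on either side are Runx1 and Setd4. The hairpin and its mature strands, from RefSeq, are shown first since the probe name gives no strand; capitals in the hairpin mark the 2 mature strands, and capitals in every mature strand mark the seed, bases 2 to 8. miR-148a and miR-144 are shown beside them for comparison. Over all 12 livers miR-148a was among the probes with the highest correlation with miR-802, although its changes differed in size. miR-144 was the probe nearest to miR-802 after birth.
Mir802 hairpin: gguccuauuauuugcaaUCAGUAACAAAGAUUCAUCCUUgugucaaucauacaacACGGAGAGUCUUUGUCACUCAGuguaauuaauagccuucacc
miR-802-5p: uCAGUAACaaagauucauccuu
miR-802-3p: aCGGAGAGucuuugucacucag
miR-148a-3p: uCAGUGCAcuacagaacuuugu
miR-148a-5p: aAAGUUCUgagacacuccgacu
miR-144-3p: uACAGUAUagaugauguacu
miR-144-5p: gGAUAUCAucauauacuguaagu

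None of the other mature mouse microRNAs in the RefSeq table, which holds 1738, has the seed of either strand of miR-802, and neither does any of the 278 panel probes that could be matched to that table by name. miR-802-5p and miR-148a-3p start with the same 5 bases, but their seeds differ after that. The panel has 14 other probes for microRNAs with a gene on chromosome 16. The nearest of them, miR-155, lies 8.66 megabases away, so no probe of the panel reads a neighbour of Mir802 within 50 kb.

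miR-802 was at the floor of the table in the embryo and measured in every liver after birth, with its highest level at 3 weeks. At e15.5 it was listed at -9.97 on the log2 scale in all 3 livers, the value that stands for 0.001 linear units and for anything at or below background. The lowest values measured above that floor in the same livers were 0.57, 0.30 and 0.24 linear units, so miR-802 was not detectable there, and no fold is given against e15.5. The deposited log2 values were 7.30, 7.70 and 8.37 at 2 weeks. They were 8.99, 8.88 and 8.85 at 3 weeks, and 5.20, 5.30 and 5.21 at 7 weeks. The levels thus ran, from high to low, 3 weeks, 2 weeks, 7 weeks and e15.5, and no liver of any age overlapped with a liver of another.

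On the linear scale, miR-802 had 158, 207 and 330 units at 2 weeks, 507, 471 and 461 units at 3 weeks, and 36.8, 39.5 and 37.0 units at 7 weeks. The mean log2 values were 7.79 ± 0.54 at 2 weeks, 8.90 ± 0.07 at 3 weeks and 5.24 ± 0.06 at 7 weeks (SD, n = 3 each). Here and for all probes, a difference is the later age less the earlier one, and rose or fell is said of the later age. At 3 weeks the mean log2 level was higher than at 2 weeks by 1.12, which is 2.17-fold. At 7 weeks it was lower than at 3 weeks, with a log2 difference of -3.67, or 12.7-fold. It was also lower at 7 weeks than at 2 weeks, with a log2 difference of -2.55, or 5.86-fold. Each of these differences was larger than the range of miR-802 within either age, although the 2-week livers alone spanned 1.07 on the log2 scale.

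**Figure D1:**
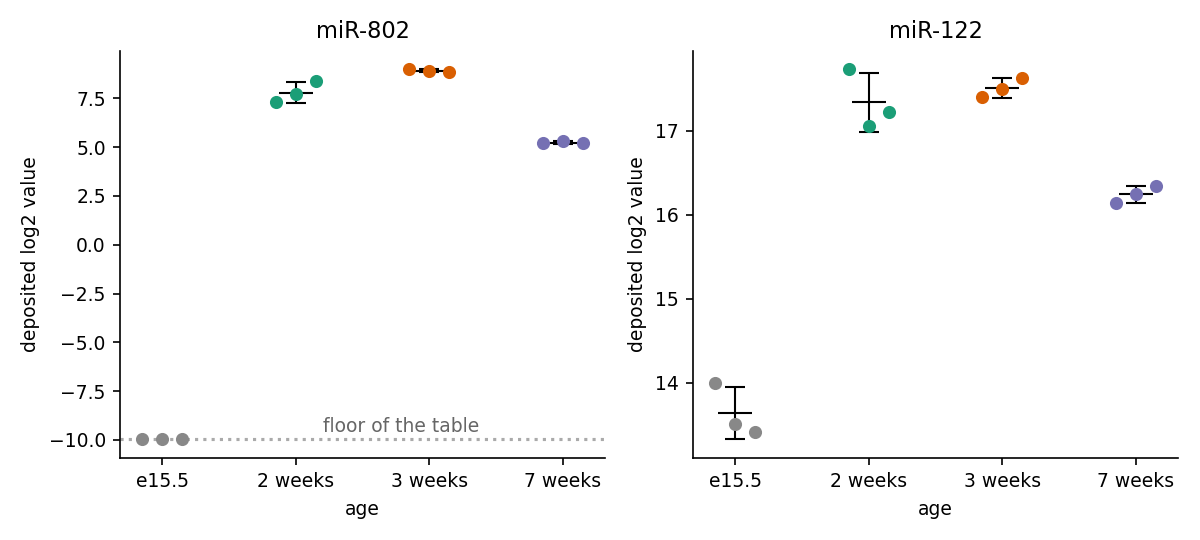
Deposited log2 values (vertical axes, on separate scales) of miR-802 (left) and miR-122 (right) by age, with 1 point per liver, and the mean and SD of 3 livers as black bars. miR-802 lies on the floor of the table at e15.5, peaks at 8.85 to 8.99 at 3 weeks and lies at 5.20 to 5.30 at 7 weeks, while miR-122 is measured at every age.

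The livers differed in overall brightness, and that difference bears on the size of each step. Their total linear signal ran from 148505 to 618776 units, and 44 to 196 of the 355 probes were at the floor in a given liver. To set this aside, each liver was also centred on the mean log2 value of the 100 brightest probes, which moved every difference by 0.36 between 3 and 2 weeks and by 1.12 between 7 and 3 weeks, on the log2 scale. After centring, miR-802 was higher at 3 weeks than at 2 weeks by 1.48, and its difference between 7 and 3 weeks was -2.55, or 5.85-fold lower. Its difference between 7 and 2 weeks was then -1.07, or 2.10-fold lower. The order of the 3 postnatal ages was thus the same on both scales, but the size of the difference between 7 and 3 weeks was not.

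The share of the whole signal gives the same order. miR-802 held 255, 426 and 666 units per 1000000 units of total signal at 2 weeks, 1034, 984 and 855 at 3 weeks, and 155, 161 and 138 at 7 weeks. Its place among the 355 probes, counted from the brightest, was 114, 105 and 81 at 2 weeks. It was 59, 58 and 63 at 3 weeks, and 119, 123 and 115 at 7 weeks. By rank the 7-week livers all lay below the 2-week livers, with the closest pair at 115 and 114.

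**Figure D2:**
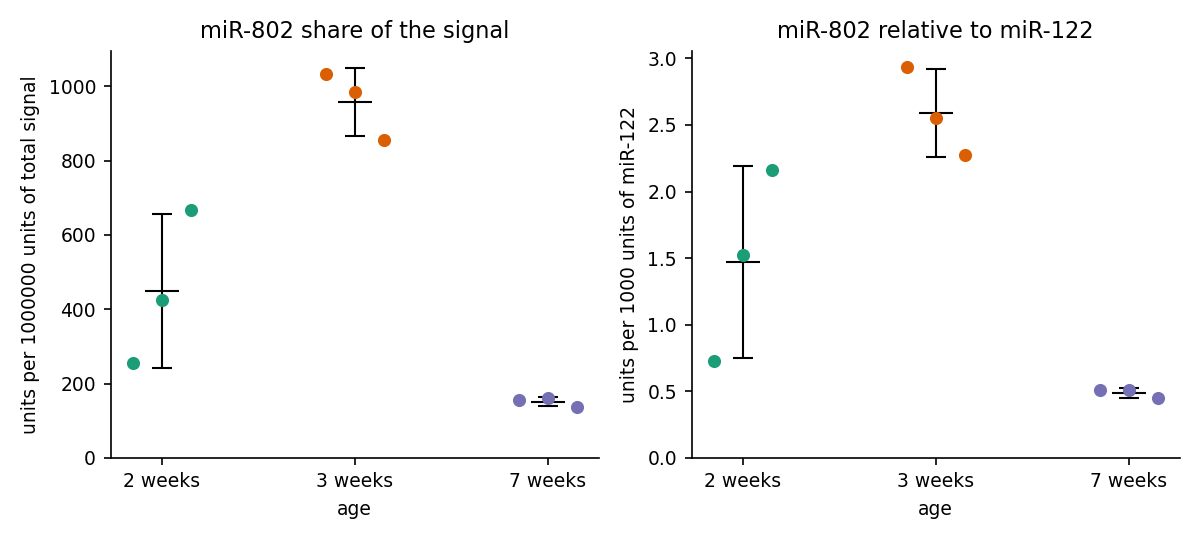
miR-802 after birth in linear units per 1000000 units of total signal (left) and per 1000 units of miR-122 in the same liver (right), by age, with 1 point per liver, and the mean and SD of 3 livers as black bars. The 3-week livers are the highest in both panels, and the 2-week livers spread widest, from 255 to 666 per 1000000.

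The agreement between mice differed with age. At 2 weeks the SD of miR-802 was 0.54 on the log2 scale, against a median of 0.31 over the 182 probes above the floor in all 3 livers, of which 43 had a larger SD. At 3 weeks the SD of miR-802 was 0.07 against a median of 0.20, and 138 of 153 such probes had a larger one. At 7 weeks it was 0.06 against a median of 0.21, and 153 of 164 such probes had a larger one. miR-802 was therefore among the more variable probes at 2 weeks and among the least variable at 3 and 7 weeks.

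The linear values within a liver lay whole steps apart. In each liver, 100% of the values above the floor and under 150 units lay a whole number of steps above the lowest of them, to within 0.1 of a step, and the step ran from 0.784 to 1.28 units over the 12 livers. The step was the largest found that fits all these values, so the 100% follows from that choice and is no test. The largest gap from a whole step in any liver was 0.0109 of a step. Divided by the step of its liver, miR-802 had 142, 190 and 293 at 2 weeks, 646, 481 and 490 at 3 weeks, and 39.8, 41.9 and 28.9 at 7 weeks. In steps, too, no postnatal age overlapped with another. The SD at 3 weeks was 17.3% of the mean in steps and 5.02% in deposited units, and at 7 weeks it was 18.9% in steps and 3.97% in deposited units. The livers at 3 and at 7 weeks thus agreed less closely in steps than in deposited units. For the share of the total signal, the SD was 9.64% of the mean at 3 weeks and 7.94% at 7 weeks.

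miR-122, unlike miR-802, was above the floor at every age. Its log2 values were 14.00, 13.50 and 13.42 at e15.5 and 17.73, 17.06 and 17.22 at 2 weeks. They were 17.40, 17.49 and 17.63 at 3 weeks, and 16.13, 16.24 and 16.34 at 7 weeks. By limma, with 1 fit to all 12 livers and Benjamini-Hochberg adjustment over all 355 probes, miR-122 rose at 2 weeks relative to e15.5, by 3.70 ± 0.19 on the log2 scale (SE, adjusted p = 5.1e-08). Between 3 and 2 weeks its difference was 0.17 ± 0.19 (adjusted p = 0.79), where miR-802 differed by 1.12. At 7 weeks miR-122 had fallen relative to 3 weeks, with a log2 difference of -1.27 ± 0.19 (SE, adjusted p = 0.00029), and after centring its difference was -0.15 (adjusted p = 0.56).

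Within a liver, the ratio of miR-802 to miR-122 does not depend on any factor that scales the liver as a whole. Probes differ in how well they capture their target, so the ratio is read only for its change with age. There were 0.726, 1.52 and 2.16 units of miR-802 per 1000 units of miR-122 at 2 weeks, 2.93, 2.55 and 2.28 at 3 weeks, and 0.511, 0.509 and 0.446 at 7 weeks. The 3 postnatal ages did not overlap in this ratio, although the highest 2-week liver, at 2.16, lay close to the lowest 3-week liver, at 2.28. The mean log2 difference between miR-802 and miR-122 was higher at 3 weeks than at 2 weeks by 0.94, and the change between 7 and 3 weeks was -2.40. The ratio at 7 weeks was also lower than at 2 weeks, with a log2 change of -1.45. miR-802 thus stood lower at 7 weeks than at 3 and 2 weeks relative to miR-122, and not only in its own units. Leaving out 1 liver at a time gave 0.50 to 1.29 for the change of the ratio between 3 and 2 weeks, the lowest without the first mouse of 2 weeks, and -2.49 to -2.31 between 7 and 3 weeks.

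Among all probes, the difference of miR-802 between 7 and 3 weeks stood at the end of the distribution. Of the 130 probes above the floor in all 6 livers of these ages, miR-802 had the lowest difference, at -3.67, followed by miR-345-5p at -3.32, and the median was -1.10. Centring shifts all probes alike and keeps that order, whereas quantile normalisation put miR-802 at the third lowest place, with -2.50, and miR-195 at the lowest, with -4.43. Between 3 and 2 weeks miR-802 had the third highest difference of 152 such probes, whose median was -0.45, and the 8th highest under quantile normalisation. Between 7 and 2 weeks it had the 13th lowest of 143, whose median was -1.26. The place of miR-802 was thus nearer to the end of the panel at the steps to and from 3 weeks than in the net difference between 7 and 2 weeks, under both scalings.

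**Figure D3:**
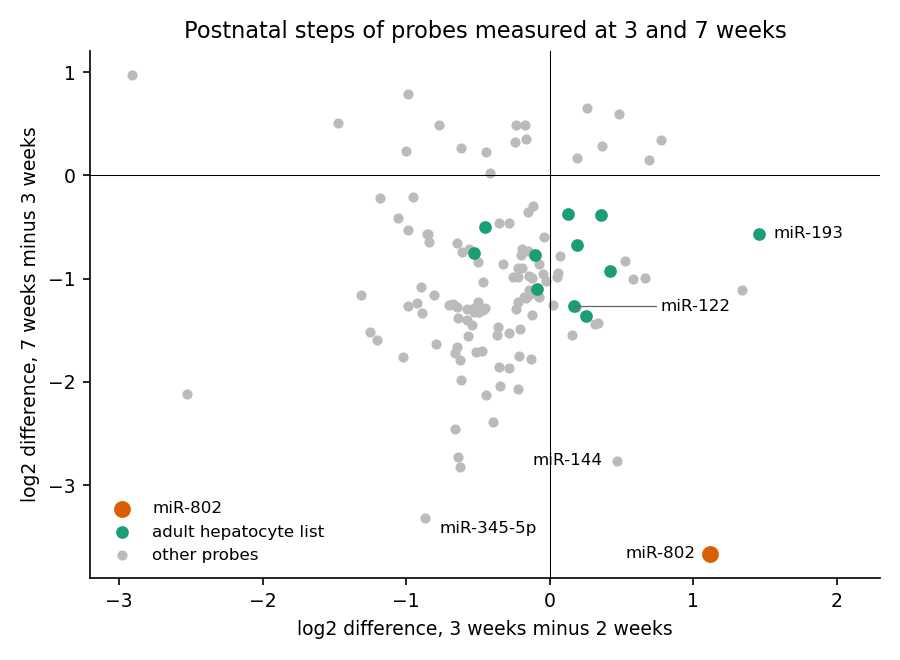
Log2 difference between 3 and 2 weeks (horizontal) against that between 7 and 3 weeks (vertical) for 129 probes above the floor in all livers of 3 and 7 weeks, as deposited; 1 more such probe lies outside the horizontal axis. Both axes use the 3-week livers, so the 2 differences are not independent; miR-802 (orange) lies at 1.12 and -3.67, apart from the other members of the adult hepatocyte list (green), which lie between -1.36 and -0.37 on the vertical axis.

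By its mean, miR-802 was 1 of 21 probes with the highest postnatal level at 3 weeks, among 129 above the floor in all 9 postnatal livers. The 21 also held miR-122, miR-148a, miR-192, miR-193, miR-22, miR-365 and miR-378, which with miR-802 are on a list of adult hepatocyte microRNAs. Of that list miR-194, miR-101a, miR-101b and miR-193b were not among the 21. miR-144, miR-451 and miR-486, which make up an erythroid list, were also among them, as was miR-342-3p of a leukocyte list. Every 3-week liver lay above every 2-week and every 7-week liver for 3 of the 129, or 2.33%, and these were miR-144, miR-365 and miR-802. After centring they were miR-144, miR-23b and miR-802. Taking the ages in pairs, 1.97% of the 355 probes lay higher at 3 weeks than at 2 weeks with no overlap, and 34.9% lay lower at 7 weeks than at 3 weeks with no overlap. Since the level of miR-802 chose it, these shares only place it on the panel.

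At e15.5, 26 of the 355 probes, or 7.32%, were at the floor in all 3 livers, and 5 of these, or 1.41% of the panel, were above the floor in all 9 postnatal livers. The 5 were miR-101a, miR-193, miR-195, miR-342-3p and miR-802. As among all probes above the floor in every liver of both ages, the others of this group had smaller differences between 7 and 3 weeks than the -3.67 of miR-802. They were -0.50 for miR-101a, -0.56 for miR-193, -1.01 for miR-342-3p and -1.86 for miR-195. Between 3 and 2 weeks the difference of miR-193, at 1.46, was larger than the 1.12 of miR-802, while the others were at 0.58 for miR-342-3p, -0.35 for miR-195 and -0.45 for miR-101a.

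Probes with the course most like that of miR-802 were sought in 2 ways. The first was Pearson's r over the 12 livers, on log2 of the linear value plus 1, among 286 probes above the floor in at least 3 livers. It was highest for miR-154 (0.989), miR-148a (0.985), let-7g (0.983), miR-23b (0.982) and miR-122 (0.981), followed by miR-23a (0.978), miR-30d (0.975) and miR-195 (0.975). All these points share the same 12 libraries and their scaling, and the gap between e15.5 and the later ages weighs most in r, so the values are a description. The lowest r was that of miR-541 (-0.948), followed by miR-134 (-0.935), from the same imprinted Dlk1-Dio3 cluster as miR-154. miR-134 averaged 7.59 ± 0.16 at e15.5 and was at the floor in every 2-week and 3-week liver, which is the reverse of miR-802 at these ages.

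As among all probes above the floor in every liver of both ages, the probes with the highest r had smaller differences between 7 and 3 weeks than miR-802. miR-148a, an abundant hepatocyte microRNA known for acting on lipoprotein metabolism, was the second of these, yet its difference between 7 and 3 weeks was -1.36, and that of miR-154 was -1.28. The second measure was the root mean square distance of log2 values over the 9 postnatal livers, after each probe's own mean was removed, among 128 other probes above the floor in all 9. By that measure the nearest probes were miR-144 (0.537), miR-106b (0.761), miR-335-5p (0.792), miR-532-5p (0.801) and miR-200a (0.834). miR-148a was the 22nd and miR-122 the 47th of the 128. miR-144, whose gene is transcribed with that of miR-451 in red blood cell precursors, was thus nearest after birth, while over all 12 livers its r with miR-802 was -0.42.

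Since miR-144 was picked for its likeness to miR-802 in these livers, its postnatal differences are given as a description. miR-144 averaged 11.33 ± 0.08 at 3 weeks and 10.86 ± 0.25 at 2 weeks (SD, n = 3 each), a difference of 0.47. At 7 weeks it averaged 8.57 ± 0.46, with a difference from 3 weeks of -2.77 as deposited and -1.65 after centring. At e15.5, where miR-802 was at the floor, miR-144 averaged 12.91 ± 0.44, its highest level. The courses of miR-144 and miR-802 were therefore close only between the postnatal ages.

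**Figure D4:**
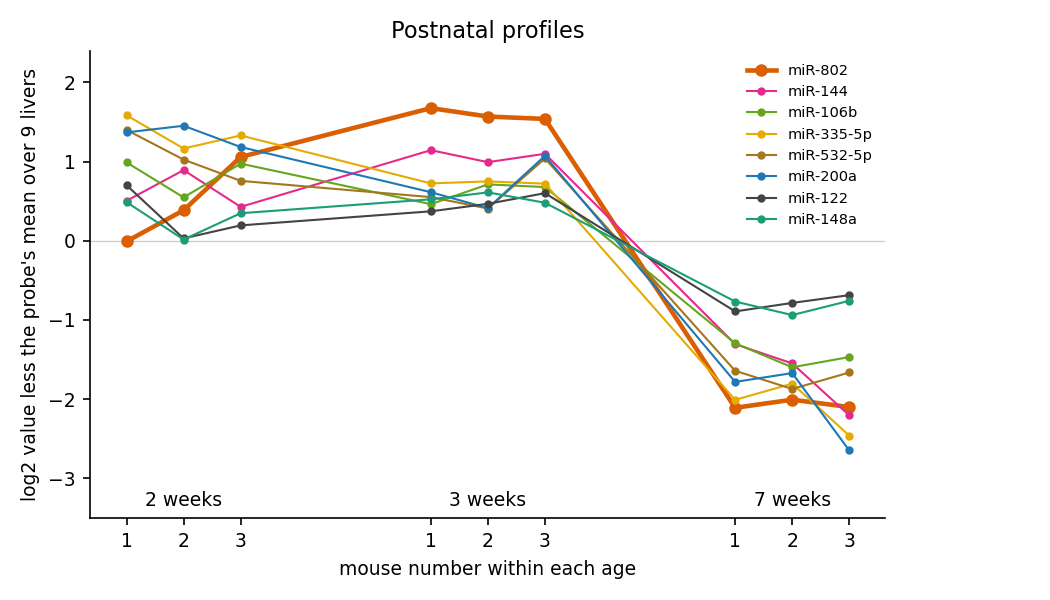
Log2 values of miR-802, its 5 nearest probes by distance, miR-122 and miR-148a in the 9 postnatal livers (horizontal axis, by age and mouse number), each less the probe's own mean over the 9 livers. miR-802 (thick orange line) reaches 1.54 to 1.68 above its mean at 3 weeks and is at -2.11 to -2.01 at 7 weeks, with miR-144 nearest to it; lines only guide the eye.

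A list of 12 microRNAs abundant in or characteristic of adult hepatocytes held miR-802 and 11 others, all on the panel. Between 2 weeks and e15.5 all 11 other members rose, where 28.2% of all probes did (limma, adjusted p below 0.05). For miR-101a and miR-193, at the floor in every e15.5 liver, the size of the rise rests on the floor value. Of the 114 probes above the floor in every liver, tested alone, 79 rose between these ages. After centring 10 of the 11 rose, where 19.2% of all probes did. Between 3 and 2 weeks none of the 11 passed the test as deposited, where 0.282% of all probes rose and 15.5% fell. After centring miR-148a, miR-192 and miR-22 rose between these ages, by 0.61, 0.55 and 0.49, where 2.54% of all probes did. Between 7 and 3 weeks 7 of the 11 fell as deposited, where 29.6% of all probes did, and where 84 of the 114 probes above the floor in every liver did when these were tested alone. After centring none fell and miR-192 and miR-22 rose, where 10.1% of all probes fell and 17.7% rose.

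The 7 that fell as deposited were miR-148a, miR-122, miR-194, miR-378, miR-193b, miR-192 and miR-22. For miR-101b, miR-193, miR-101a and miR-365 the differences between 7 and 3 weeks were -0.76, -0.56, -0.50 and -0.38, and these did not pass the test. Over the 11 probes the difference had a median of -0.76 and ran from -1.36 for miR-148a to -0.37 for miR-22. The median was lower, at -1.10, over the 130 probes above the floor in all 6 livers, which include the 11. It was 0 over all 355 probes, many of which are at the floor. Relative to each of the 11 in the same livers, miR-802 was lower at 7 weeks than at 3 weeks, with log2 changes between -2.31 (against miR-148a) and -3.29 (against miR-22). That direction follows from the place of miR-802 as the lowest of the 130 probes. Together the 11 took between 9.16% and 11.6% of the total signal at e15.5, between 38.3% and 45.6% at 2 weeks, between 47.4% and 51.0% at 3 weeks, and between 43.8% and 45.0% at 7 weeks. The shares of the 11 at 7 and at 2 weeks overlapped, while miR-802 itself had 138 to 161 and 255 to 666 units per 1000000 at these ages.

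A list of 15 microRNAs known for roles in insulin and lipid metabolism of the liver, miR-802 among them, held 13 other members on the panel. Between 2 weeks and e15.5, 11 of the 13 rose and miR-370 fell, where 28.2% of all probes rose and 22% fell, while after centring 7 rose and 4 fell, where 19.2% rose and 45.6% fell. miR-370 was at the floor in every postnatal liver and in 1 of 3 e15.5 livers, so the size of its fall rests on the floor value. Between 3 and 2 weeks miR-29c rose, by 0.78, and miR-26b fell by 0.50, as deposited, where 0.282% of all probes rose and 15.5% fell. After centring miR-29a, miR-29b and miR-29c rose, by 0.55, 0.84 and 1.14, and none fell, where 2.54% of all probes rose and 10.1% fell. At 7 weeks, relative to 3 weeks, 7 had fallen and miR-29b and miR-29c had risen as deposited, where 29.6% of all probes fell and 11.8% rose. Of the 114 probes above the floor in every liver, tested alone, 84 fell and 3 rose. After centring miR-335-5p fell by 1.70, and miR-29a, miR-29b and miR-29c rose, by 1.29, 1.71 and 1.46, where 10.1% of all probes fell and 17.7% rose. The 7 that fell as deposited were miR-103 and miR-107, which lie in introns of pantothenate kinase genes and lower insulin sensitivity in mice, miR-143, miR-378, miR-26b, miR-27b and miR-335-5p.

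Of these members, miR-335-5p came closest to miR-802 in the size of its difference between 7 and 3 weeks, at -2.82 as deposited, against -3.67 for miR-802. It averaged 8.40 at 3 weeks and 9.03 at 2 weeks, where the mean of miR-802 was higher at 3 weeks. miR-33, carried in an intron of the sterol regulator gene Srebf2, averaged 5.64 at e15.5, then 5.24 (2 weeks), 5.90 (3 weeks) and 4.90 (7 weeks), and neither postnatal step passed the test. Together the 13 took between 2.16% and 2.47% of the total signal at 2 weeks and between 2.49% and 2.61% at 3 weeks. At 7 weeks, where miR-802 was at its lowest after birth, they took between 4.43% and 4.65%. This sum is weighted to the brightest members, which at 7 weeks were miR-29a (mean log2 value 12.38), miR-29c (11.48) and miR-29b (9.97). Its course therefore does not describe the other members of the list.

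Probes that mark cell types other than hepatocytes also varied over the ages at which miR-802 differed. The summed signal of the 3 erythroid probes, miR-144, miR-451 and miR-486, lay between 12411 and 17254 units at e15.5, between 8987 and 10801 at 2 weeks, between 9643 and 11275 at 3 weeks and between 2712 and 5271 at 7 weeks. All 3 fell between 7 and 3 weeks as deposited, where 29.6% of all probes did. So did 84 of the 114 probes above the floor in every liver, tested alone. After centring miR-144 alone fell, where 10.1% of all probes did, and miR-144 had been picked for its course in these livers. The 7 intestinal and biliary epithelium probes summed to between 202 and 301 units at e15.5, between 2029 and 2273 at 2 weeks, between 885 and 1395 at 3 weeks and between 377 and 455 at 7 weeks. Of these, miR-200b and miR-429 fell between 7 and 3 weeks as deposited. After centring miR-429, not measured above the floor in any 7-week liver, fell and miR-31 rose, where 10.1% of all probes fell and 17.7% rose. This epithelial signal was highest at 2 weeks, miR-802 at 3 weeks, and the part of either list in the level of miR-802 was not tested.

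Since miR-802 is also made in the pancreas, pancreatic microRNAs were looked at. Of 6 listed, miR-148a, miR-216a and miR-7a were on the panel, and miR-148a is a hepatocyte microRNA too. miR-148a averaged 14.45 at 2 weeks, 14.70 at 3 weeks and 13.34 at 7 weeks. miR-216a and miR-7a were at the floor in every 2-week and 3-week liver. At 7 weeks miR-216a was at the floor in 2 of 3 livers and miR-7a in 1 of 3. miR-7a rose at 7 weeks relative to 3 weeks on both scales, and the size of that rise rests on the floor value. The part of pancreatic tissue in the level of miR-802 was not tested.

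The remaining lists had a lower summed signal at 7 weeks than at 3 weeks as deposited, where the total signal was lower too, between 236867 and 267915 units at 7 weeks and between 478381 and 539127 at 3 weeks. In the counts that follow, 29.6% of all probes fell and 11.8% rose as deposited, and 10.1% fell and 17.7% rose after centring. Of the 114 probes above the floor in every liver, tested alone, 84 fell and 3 rose as deposited. The 8 leukocyte probes summed to 1748 to 1993 units at 7 weeks and to 2758 to 3055 at 3 weeks, but their share of the total was 0.653% to 0.842% at 7 weeks and 0.567% to 0.577% at 3 weeks, higher at 7 weeks where that of miR-802 was lower. Of these, miR-142-3p, miR-223 and miR-146a fell and miR-146b rose as deposited, while after centring none fell and 4 rose. The rise of miR-146b also rests on the floor value, where it lay in 2 of 3 livers at 3 weeks. The 2 endothelial probes, miR-126-3p and miR-126-5p, summed to 10541 to 12080 units at 7 weeks and to 25099 to 28415 at 3 weeks, or 4.31% to 4.70% and 5.25% to 5.80% of the total, and both fell as deposited but neither did after centring. The 5 stellate and mesenchymal probes summed to 1427 to 1712 units at 7 weeks and to 3766 to 4814 at 3 weeks, or 0.584% to 0.639% and 0.787% to 0.893% of the total. Of these, miR-143, miR-145, miR-199a-3p and miR-199a-5p fell and miR-214 rose as deposited, while after centring none of the 5 fell and miR-214 rose. miR-214 was at the floor in every 3-week liver and in 1 of 3 livers at 7 weeks, so the size of its rise rests on the floor value. The part of these cell types in the level of miR-802 was not tested.

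Since miR-802 had the lowest difference between 7 and 3 weeks of the 130 measured probes, those of chromosome 16 among them had to lie above it. Their values are given as a description. For the other probes of chromosome 16 above the floor in all 12 livers, the difference ran from -1.43 for miR-185 to 0.79 for miR-484. That of miR-155, the nearest, was 0.35 (limma, adjusted p = 0.39).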

How the data were processed

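RNA of 12 mouse livers was measured with the nCounter mouse microRNA assay. The table the authors deposited holds log2 values of 355 probes, and Partek 6.6 is the tool named in the submitters' processing notes. The background correction and the scaling are steps not given in the sources used here. The lowest value of every liver was -9.97, or log2 of 0.001, and stands for background or less. The depth in counts is unknown, so no counting interval was computed.

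A linear model with a mean for each age was fitted over all 12 livers in limma 3.58.1 under R 4.3.3 (lmFit, contrasts, eBayes with a trend of the variance). Tests were two-sided, for 3 comparisons of neighbouring ages, with Benjamini-Hochberg adjustment over all 355 probes and 0.05 as threshold. "Centred" values had the liver's mean over 100 probes subtracted, floor values included, and the mean of these probes over all livers added back. The 100 were the same in every liver, those with the highest mean log2 value over the 12 livers. Since labels name mice but do not say how livers were taken, p-values measure the spread between these samples.

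Named probes were miR-802 and miR-122 in every liver, the 8 with the highest r, the 5 with the smallest postnatal distance, the hepatocyte and metabolic lists, and of other lists up to 2 with the highest mean; the lowest probes of a comparison, those at the floor at e15.5 or peaking at 3 weeks, those of chromosome 16, and further list members were named after their values were seen. The members, the lists and the tests were chosen with earlier results of these data known. The lists (adult hepatocyte, insulin and lipid metabolism, pancreas, intestinal and biliary epithelium, erythroid, leukocyte, endothelial, stellate and mesenchymal) come from general knowledge of these cells.

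Alternatives were centring, centring on the median of the 114 probes above the floor in every liver, quantile normalisation, log2 of the linear value plus 1 or plus 10, the upper 50% of probes or those 114 only, a fit with no trend, a fit to the compared ages alone, a block for mouse number, and leaving out each liver. Added after seeing the data was division of each liver by its step.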

Additional observations from a re-analysis of the deposited data

How the results depend on the processing

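The order of the postnatal ages of miR-802 was the same under every setting tried. Its difference between 3 and 2 weeks was 1.66 under quantile normalisation. Between 7 and 3 weeks it was -2.55 after centring on the 100 brightest probes, -2.60 on the median of probes measured in every liver, -2.50 under quantile normalisation, -3.36 with 10 added to the linear values and -3.87 with each liver divided by its step. Between 7 and 2 weeks it was -1.07, -1.06 and -0.83 under centring, median centring and quantile normalisation. The change of miR-802 relative to miR-122 between 7 and 3 weeks was -2.09 with 10 added. The fall of miR-122 between 7 and 3 weeks was not called under either centring, at -0.15 and -0.20 (limma, adjusted p = 0.56 and 0.54); under quantile normalisation it was 0 (adjusted p = 1) by construction, since miR-122 is the brightest probe of these livers. Leaving out 1 liver gave 0.87 to 1.41, -3.70 to -3.63 and -2.80 to -2.26 for the 3 differences of miR-802.

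Over all probes, 178 were called between 2 weeks and e15.5, and 95 of the 114 measured in every liver. Between 3 and 2 weeks 56 were called, against 26 under quantile normalisation, 33 with steps and 37 of the 114. Between 7 and 3 weeks 147 were called, against 97 with median centring, 69 under quantile normalisation and 87 of the 114. Of the hepatocyte list 7 were called between 7 and 3 weeks, against 2, 3 and 1 under centring, median centring and quantile normalisation, all higher, and 3 without a trend. Leaving out 1 liver gave 3 to 7, and 3 or 4 without mouse 2 of 2 weeks, mouse 1, 2 or 3 of 3 weeks, or mouse 1 or 2 of 7 weeks. Of the metabolic list 9 were called, against 4 under each of these 3 scalings, and 5 to 8 leaving out 1 liver, with 5 without mouse 1 of 3 weeks or mouse 1 or 3 of 7 weeks. Of the 8 probes most like miR-802, 2 remained on the deposited log2 scale, 3 after centring and 3 over the 9 postnatal livers. Fewer probes were tested where only the 114 were used; otherwise the cause was not tested.

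Mouse numbers are not said to pair livers of different ages. Over 114 probes, deviations of livers with the same number correlated between -0.41 and 0.52 (18 pairs). Those with different numbers correlated between -0.55 and 0.45 (36 pairs). These ranges overlap and, with 3 livers per age, cannot decide whether livers of the same number belong together. With the mouse number as a replicate block, 4 of the hepatocyte list were called between 7 and 3 weeks. With 3 livers per age and no counts, the spread of miR-802 at each age rests on 3 values, and its level at e15.5 has only an upper bound.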
